A study of Mus musculus with 9 samples.

Results

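The cytoplasmic ribosomal protein genes were described by RNA sequencing in 9 libraries of splenic natural killer (NK) cells of the mouse strain C57BL/6. The genes were the protein-coding genes whose symbol begins with Rpl or Rps and a digit, together with Rplp0, Rplp1, Rplp2 and Rpsa, and without the Rps6k kinases, Rps19bp1 and pseudogenes. A gene was kept when it had at least 20 CPM (counts per 1000000 counts of the library) in at least 3 of the 9 libraries, which left 69 of the 27179 genes in the files. Of the 9 libraries, 3 came from Id2-null NK cells and 3 from wild-type (WT) NK cells, and both genotypes were grown for 7 days in interleukin-15 (IL-15), the cytokine on which NK cells depend. The other 3 were 1 library each of wild-type cells sorted from spleen without culture, labelled Immature, M1 and M2. The sources used here give neither the way Id2 was removed, nor the sort markers, nor whether replicates were separate mice or cultures, so p-values cover only the spread between libraries, technical or not.

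The ribosome is built from a large and a small subunit, each a core of ribosomal RNA covered by proteins that, with few exceptions, are present in a single copy. In mammals the mRNAs of these proteins start with a C and a run of pyrimidines, the terminal oligopyrimidine (TOP) motif, through which the kinase mTOR and the RNA-binding protein LARP1 set their translation and stability together. Their genes left many processed pseudogenes and retrogene copies in the mouse genome, since their mRNAs are short and abundant.

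Total counts ran from 4128414 to 4831831 per library. Id2, the targeted gene, had 56, 113 and 44 counts in the Id2-null libraries, against 1958, 1925 and 1945 in the WT libraries. The NK markers Ncr1, Klrb1c, Klrk1, Nkg7, Eomes, Il2rb and Gzma summed to 6579 to 7162 CPM in the Id2-null cultures, 8786 to 10800 CPM in the WT cultures and 14194 to 31836 CPM in the sorted libraries. B cell markers summed to 0.408 to 1.76 CPM in the cultures and 21.7 to 85.0 CPM in the sorted libraries, and erythroid markers to at most 0.831 CPM in cultures and 7.73 to 27.9 CPM in sorted libraries. T cell markers summed to 212, 324 and 178 CPM in Id2-null replicates 1 to 3, against 54.0, 205 and 51.5 CPM in WT replicates 1 to 3. Nearly all of it was Cd3d, Cd3e and Cd3g, while Cd4 had 0 counts in every culture and Cd5 and Cd8b1 at most 0.42 CPM. CPM in the rest of the text are scaled by the trimmed mean of M values (TMM) unless given as shares of counts. In bulk samples, fewer cells of a type and less RNA per cell cannot be told apart.

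The 69 genes held 61 of the 77 conventional Rpl and Rps genes, 35 of 46 for the large and 26 of 31 for the small subunit. The other 8 were the paralogs and retrogenes Rpl7l1, Rpl22l1, Rpl36al, Rps27l, Rpl32l, Rpl37rt, Rps27rt and Rps23rg1. The 16 conventional genes under the threshold included Rpl11, Rpl38, Rps27, Rpl31, Rps12 and Rpl39, all core proteins of the mammalian ribosome. Rpl11, which with Rpl5 binds MDM2 when ribosome assembly fails, had 2.04 to 4.90 CPM over the 9 libraries. Rpl38 had 1.51 to 8.52 CPM, and Rpl39 had 0 or 1 count in all but 1 library, WT replicate 2, which had 2. The last genes inside the threshold were Rpl17 and Rpl12, which reached 20.18 and 20.998 CPM by library total in 3 libraries, and the first outside were Rps23 and Rps27, which reached 12.5 and 11.4 CPM.

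Sequence copies went with these low levels. For each gene the coding sequence of GENCODE M21 was read in 50-base windows, and a window was called unique when no other annotated gene held it on either strand. Where no complete coding transcript was found there, as for Rpl32l and Rpl37rt (399 and 682 bases), the whole transcript was read. The 30 conventional genes with 0% unique windows had a median of 21.6 CPM (mean over 9 libraries), and 12 of them lay under the threshold. The 35 genes with some but under 40% unique windows had a median of 197 CPM, with 4 under the threshold. The 12 genes with 40% or more had a median of 713 CPM, and all 12 were among the 69. Over the 77 genes Spearman's rho between unique windows and mean level was 0.666, given as a description since the genes share libraries. The plot of level against unique windows shows the genes under the threshold at 0 to 17.8% unique windows.

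**Figure D1:**
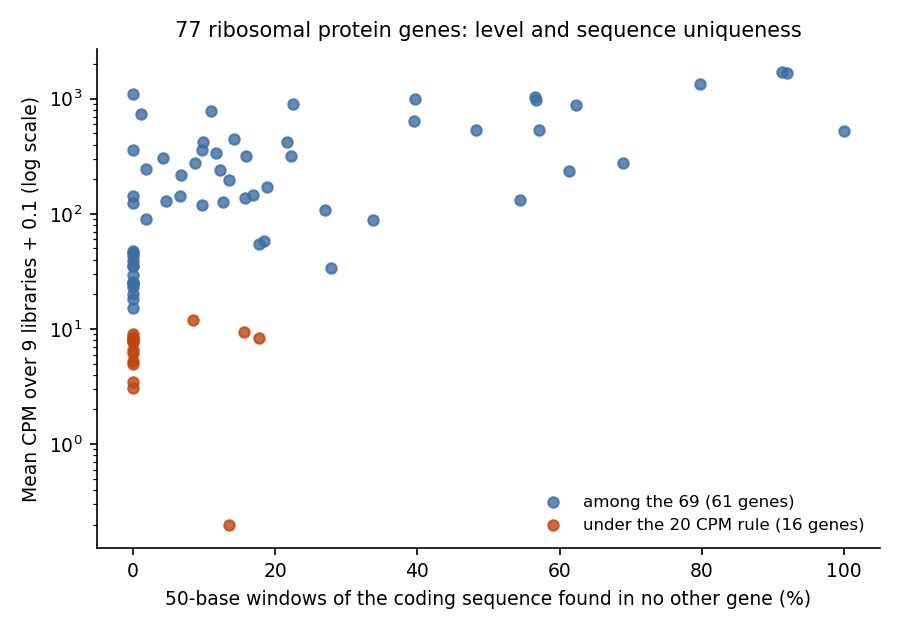
Mean CPM over the 9 libraries, plus 0.1 on a log scale, against the share of 50-base coding windows found in no other gene, for 77 conventional ribosomal protein genes. The 16 genes under the 20 CPM rule have at most 17.8% unique windows, and the 12 genes with 40% or more are all among the 69.

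The Rps27 family shows the case most plainly, and its coding sequences are given whole, with bases that differ from Rps27 in capitals. Rps27 encodes a zinc-finger protein of the small subunit, Rps27rt is an intronless retrogene copy on chromosome 9, and Rps27l is a paralog.
Rps27rt: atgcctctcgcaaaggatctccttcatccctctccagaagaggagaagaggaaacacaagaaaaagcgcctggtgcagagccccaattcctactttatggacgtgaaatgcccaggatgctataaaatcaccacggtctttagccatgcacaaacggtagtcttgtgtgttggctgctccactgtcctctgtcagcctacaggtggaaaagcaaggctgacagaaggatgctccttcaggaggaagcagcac
Rps27: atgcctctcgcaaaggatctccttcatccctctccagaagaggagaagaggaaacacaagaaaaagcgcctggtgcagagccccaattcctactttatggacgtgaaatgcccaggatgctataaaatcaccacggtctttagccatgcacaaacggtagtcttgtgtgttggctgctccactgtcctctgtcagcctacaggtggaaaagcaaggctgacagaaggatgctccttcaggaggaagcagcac
Rps27l: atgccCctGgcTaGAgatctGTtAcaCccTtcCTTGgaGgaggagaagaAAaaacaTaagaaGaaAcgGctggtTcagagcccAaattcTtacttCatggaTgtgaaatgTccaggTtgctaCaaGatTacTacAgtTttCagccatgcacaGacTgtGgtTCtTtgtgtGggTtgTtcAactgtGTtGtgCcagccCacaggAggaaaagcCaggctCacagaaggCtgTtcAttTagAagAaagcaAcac
Rps27rt and Rps27 are 252 bases each with 0 differences, and Rps27l differs from Rps27 at 60 bases, with 51.7% unique windows. Rps27rt was listed at 189 to 261 CPM in the Id2-null, 249 to 279 CPM in the WT and 1013 to 1411 CPM in the sorted libraries. Rps27 was listed at 3.52 to 6.97 CPM, 2.69 to 4.57 CPM and 12.3 to 15.8 CPM in the same groups. A read from the coding part of one therefore matches the other, and which gene the counts belong to cannot be told apart.

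The first 50 coding bases of 2 genes show the range, from a gene with most windows unique to one with none.
Rps3: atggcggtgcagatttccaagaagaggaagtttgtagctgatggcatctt
Rpl28: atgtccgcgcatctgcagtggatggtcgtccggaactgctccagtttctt
The stretch of Rps3 was in 0 other GENCODE genes and that of Rpl28 in 3. Rps3 has 91.9% unique windows and Rpl28 0%. Rps3 encodes a small-subunit protein at the entry of the mRNA channel and Rpl28 a large-subunit protein.

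Of 69 genes, 50 matched a RefSeq promoter of GRCm38.p6, which runs from 250 bases before to 50 bases after an annotated start. An annotated start with C and a run of 5 or more pyrimidines was present in 11 of 50 genes (22.0%), against 813 of 27025 genes with a promoter (3.01%). Windows of 30 bases, 10 before the start and 20 from it, are shown for 6 of the 11, with the pyrimidine run in capitals.
Rpl28: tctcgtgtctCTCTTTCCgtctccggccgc
Rplp2: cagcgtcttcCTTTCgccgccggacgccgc
Rps6: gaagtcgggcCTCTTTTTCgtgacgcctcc
Rpl15: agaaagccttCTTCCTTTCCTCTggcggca
Rps18: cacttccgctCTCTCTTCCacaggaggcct
Rps27rt: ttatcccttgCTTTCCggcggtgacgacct
In GRCm38.p6 these are chr7:4792955-4792984 (plus strand), chr7:141447641-141447670 (plus), chr4:86857348-86857377 (minus), chr14:18270967-18270996 (minus), chr17:33955646-33955675 (minus) and chr9:114982720-114982749 (minus), in the order shown. The longest of the 6 runs, 13 pyrimidines, was at Rpl15 and the shortest, 5, at Rplp2. The letters CGGAAG, the core of ETS-family sites, were on either strand of 31 of the 50 promoters (62.0%), against 18.8% of all 27025. A match is a description of the letters and shows no binding.

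Per kilobase of gene length, the mean over the 9 libraries was highest for Rpl41, Rpl37rt and Rpl8, at 2468, 2221 and 1982 CPM per kb. Rpl41 encodes the shortest protein of the mammalian ribosome and Rpl8 a protein beside its peptidyl transferase centre. The lowest were Rpl5, Rpl15 and Rpl17, at 9.87, 19.0 and 23.2 CPM per kb, each with 0% unique windows. Rpl41 also has 0% unique windows, so that a low share did not always go with a low level. Of the 69 genes, 53 had at least 20 CPM in all 9 libraries.

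In Id2-null cultures 0 of 69 ribosomal protein genes were called against WT by edgeR's quasi-likelihood test at a Benjamini-Hochberg adjusted p under 0.05, beside 3.42% of the 11022 genes tested. At an unadjusted p under 0.05 there were 8, beside 14.6% of all genes, and the lowest adjusted p was 0.118. Limma voom called 0 of the 69, beside 2.93% of all genes, and DESeq2 called 1, Rpl32, beside 5.27%. A fit that took replicate numbers as blocks called 4 genes higher, Rpl32, Rps27l, Rpl23 and Rpl13a, and 0 lower, beside 7.58% of all genes called in that fit and 4.10% called higher. Over the 69 genes, same-numbered libraries of the genotypes deviated together in replicate 1 alone (r = 0.53, -0.52 and -0.49 in replicates 1 to 3). The median log2 fold change was 0.22 over the 69 genes, with 50 positive and 19 negative, and 0.01 over all genes tested. In 12 genes (17.4%) the genotypes did not overlap, all higher in Id2-null, beside 20.4% of all genes (9.99% higher and 10.4% lower).

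The genes took 2.54, 2.69 and 2.84% of counts in Id2-null replicates 1 to 3, against 1.999, 2.46 and 2.28% in WT replicates 1 to 3. The means were 2.69 ± 0.152% in Id2-null and 2.25 ± 0.234% in WT cultures (SD, n = 3 each). Each Id2-null library lay above each WT library. The T cell marker sums given above were highest among WT libraries in replicate 2, the WT library with the highest share. Among Id2-null libraries they were lowest in replicate 3, the Id2-null library with the highest share. These sums overlapped between genotypes, at 178 CPM in Id2-null replicate 3 and 205 CPM in WT replicate 2. Of the 3 T cell markers tested, 0 were called. Cell cycle genes summed to 3884, 4307 and 2944 CPM in Id2-null libraries, against 4711, 4322 and 4938 CPM in WT libraries, without overlap, and 0 of 13 were called. The part of either in the shares was not tested. The 16 genes with 40% or more unique windows took 1.27, 1.35 and 1.43% of counts in Id2-null libraries, against 0.944, 1.14 and 1.14% in WT libraries. Of these 16, 15 had a positive log2 fold change with a median of 0.38, and 0 were called. These shares are given without a test, since the members were chosen with results known.

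**Figure D2:**
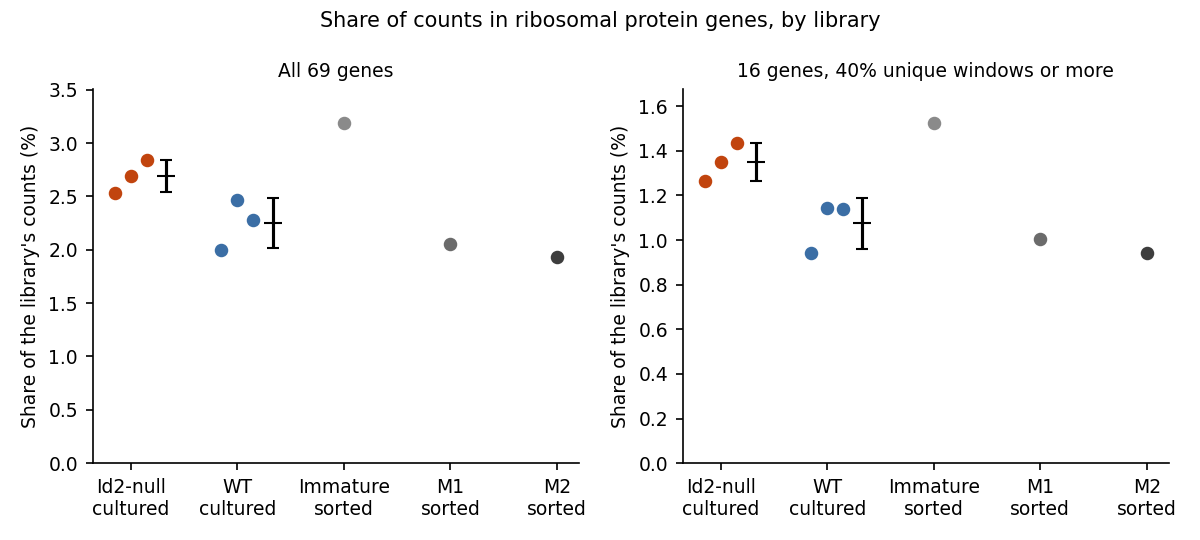
Share of each library's counts in the 69 ribosomal protein genes and in the 16 with 40% or more unique windows, in percent. Points are libraries and bars the mean ± SD of 3 libraries; Id2-null libraries lie above WT libraries in both panels, and Immature, at 3.19% and 1.52%, lies above M1 and M2.

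Rpl32, a protein of the large subunit with 62.4% unique windows, had 1095, 1071 and 1321 CPM in Id2-null libraries, against 702, 793 and 932 CPM in WT libraries. The genotypes did not overlap, and edgeR gave 0.53 on the log2 scale with an SE of 0.15 (adjusted p = 0.118, and 0.0159 with the replicate block). Rpl13a, whose protein in human monocytes also silences translation after interferon-gamma, had 194, 188 and 278 CPM in Id2-null and 141, 158 and 153 CPM in WT libraries. There edgeR gave 0.55 on the log2 scale with an SE of 0.17 (adjusted p = 0.144, and 0.0499 with the block). Rps27l, a p53 target, had 115, 130 and 200.5 CPM in Id2-null libraries, against 89.6, 91.0 and 111 CPM in WT libraries, with adjusted p = 0.218 (edgeR; 0.0203 with the block). Rpl23, an MDM2-binding protein, had 232, 180 and 420 CPM in Id2-null libraries and 148, 153 and 225 CPM in WT libraries. There the genotypes overlapped, since Id2-null replicate 2 lay under WT replicate 3, and the call was made only with the block.

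Libraries stood apart from others of their genotype. Id2-null replicate 3 was over 2-fold from the mean of the other 2 Id2-null libraries in 21 of 69 genes (30.4%), 12 higher and 9 lower, beside 8.31% of all genes tested. WT replicate 2 was over 2-fold from the other 2 WT libraries in 12 of 69 (17.4%), all higher, beside 1.38% of all genes. Among the 16 genes with 40% or more unique windows these counts were 1 and 0. Rpl35a had 283 CPM in Id2-null replicate 3, against 7.47 and 7.39 CPM in replicates 1 and 2. Rps26 had 370 CPM in Id2-null replicate 3, against 19.1 and 29.6 CPM in replicates 1 and 2, and 157 CPM in WT replicate 2, against 22.9 and 20.6 CPM in WT replicates 1 and 3. Rpl21 went the other way in the Id2-null cultures, with 75.5 CPM in replicate 3, against 630 and 622 CPM in replicates 1 and 2.

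**Figure D3:**
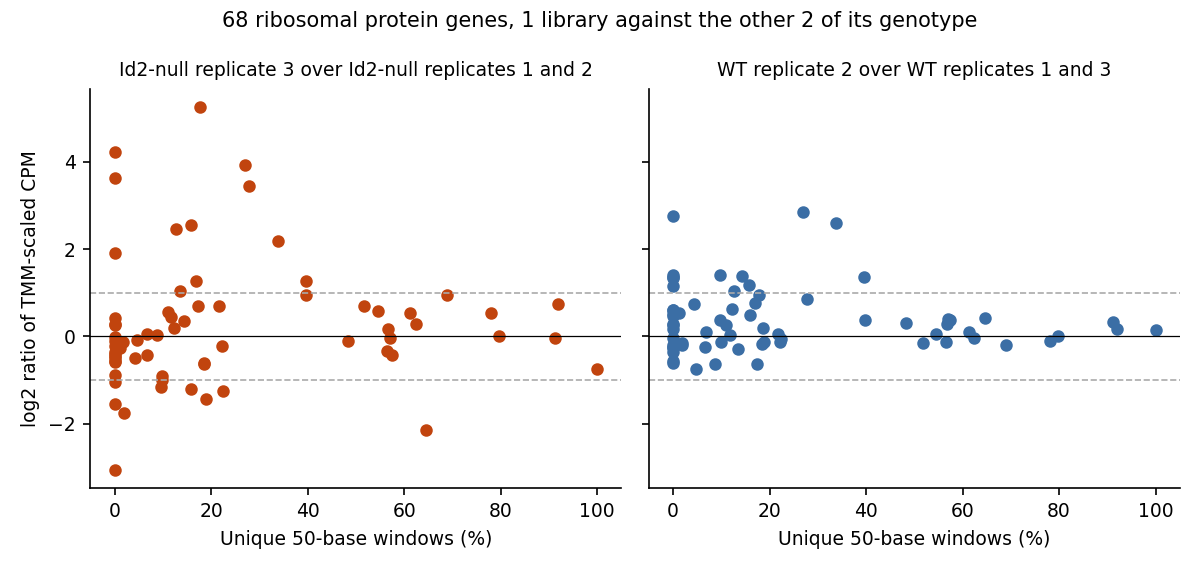
The log2 ratio of TMM-scaled CPM in 1 library to the mean of the other 2 of its genotype, against the share of unique 50-base windows, for 68 of the 69 genes. Dashed lines mark 2-fold; nearly all genes beyond them have under 40% unique windows.

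The split between a gene and its copies differed in the same library. Of 13 families with a gene, at least 1 copy named after it in the files and at least 20 CPM in all, the gene's share of the family was highest in Id2-null replicate 3 among the 6 cultured libraries in 12. Rpl34 took 34.8% of its family's counts there, against 1.9 and 2.4% in Id2-null replicates 1 and 2 and 2.4 to 4.9% in WT libraries. Of 21 pseudogenes tested, 10 were over 2-fold lower in Id2-null replicate 3 than in the other 2. The part of these copies in the genotype comparison was not tested. Without Id2-null replicate 3 and WT replicate 2, a fit chosen after the data were seen called 3 genes higher, Rpl18, Rpl37rt and Rpl41, and 0 lower, with a median log2 fold change of 0.25 (edgeR), beside 3.25% of all genes called higher and 2.27% lower in that fit. None of these 3 was called in the fit of all 6 libraries, and the 4 genes called with the replicate block were not called here.

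Rpl18 had 138, 148 and 63.6 CPM in Id2-null libraries, against 85.2, 228 and 85.9 CPM in WT libraries. The libraries that stood apart were the lowest and the highest of the 6, so that the groups overlapped and the log2 fold change of all 6, -0.18, turned to 0.74 without them. Rpl37rt, a retrogene of Rpl37, had 2180, 2207 and 1639 CPM in Id2-null libraries and 1154, 1770 and 1576 CPM in WT libraries. Rpl41 had 1610, 1737 and 912 CPM in Id2-null libraries, against 1187, 1644 and 1190 CPM in WT libraries.

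Of the genes with a role outside the ribosome or in its stalk, Rplp0 had 805, 900.2 and 1643 CPM in Id2-null libraries and 674, 946 and 778 CPM in WT libraries (adjusted p = 0.528, edgeR). Rpl22, whose loss in mice impairs the development of alpha-beta T cells, had 311, 230.1 and 522 CPM in Id2-null libraries and 249.7, 215 and 243 CPM in WT libraries (adjusted p = 0.413, edgeR). Rps6, the target of the S6 kinases, had 47.5, 48.2 and 36.3 CPM in Id2-null and 43.9, 48.0 and 41.5 CPM in WT libraries. Rps19 and Rpl5, both mutated in Diamond-Blackfan anaemia in people, had log2 fold changes of -0.05 and 0.39 (adjusted p = 0.982 and 0.871, edgeR). Rpl3, Rps4x and Rpsa, the last also known as a laminin receptor, had log2 fold changes of 0.18, 0.22 and -0.05, and their groups overlapped.

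Among genes that act on ribosomal protein mRNAs, Larp1 rose in Id2-null cells. It had 936, 1026 and 800 CPM in Id2-null libraries, against 618, 631 and 554 CPM in WT libraries, which edgeR put at 0.62 on the log2 scale (adjusted p = 0.0424, SE 0.13). It was the only one called of 15 genes of TOP mRNA control, beside 3.42% of all genes tested. Of 16 other TOP translation factors, 28 initiation factors, 7 ribosomal protein chaperones and 77 mitochondrial ribosomal protein genes tested, 0 were called. Myc, a transcriptional activator of ribosome genes, had 203, 233 and 130 CPM in Id2-null and 141, 175 and 143 CPM in WT libraries (adjusted p = 0.602, edgeR). Eef1a1, the main elongation factor, had 7141, 7253 and 3813 CPM in Id2-null and 5810, 6401 and 6404 CPM in WT libraries, with Id2-null replicate 3 the lowest of the 6. The ribosomal protein genes Rack1 and Fau, which carry no Rpl or Rps symbol, had log2 fold changes of 0.16 and 0.24, and neither was called.

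Cultured WT cells and sorted cells differed in 37 of 69 ribosomal protein genes, 13 higher and 24 lower in culture, beside 56.8% of 11117 genes tested (26.8% higher and 30.0% lower; edgeR, adjusted p under 0.05). The share called, 53.6%, lay near that of all genes. The sorted group holds 1 library of each of 3 populations, so its spread is that between populations. The median log2 fold change was -0.34 over the 69 genes and -0.03 over all genes. The members ranged from -3.63 to 3.18, and the groups did not overlap in 41 genes, 13 higher and 28 lower, beside 65.8% of all genes. The share of counts in the 69 genes was 2.25 ± 0.234% in cultured WT and 2.39 ± 0.692% in sorted libraries (SD, n = 3 each), which overlapped.

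By subunit, 10 of 35 large-subunit genes rose in culture and 9 fell, with a median log2 fold change of 0.07. Of 26 small-subunit genes 1 rose, Rps19, and 12 fell, with a median of -0.71. The difference between subunits was not tested. These counts and those that follow stand beside 26.8% of all 11117 genes tested called higher and 30.0% called lower. The 16 genes with 40% or more unique windows held 2 that rose, Rps27l and Rpl37rt, and 6 that fell, with a median of -0.41 and a range from -1.14 to 1.58. Rpl37rt was read over its whole transcript, and 82.2% of the coding windows of Rpl37 were found in it. The 19 genes with 0% unique windows held 6 that rose and 6 that fell, with values up to 3.18.

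**Figure D4:**
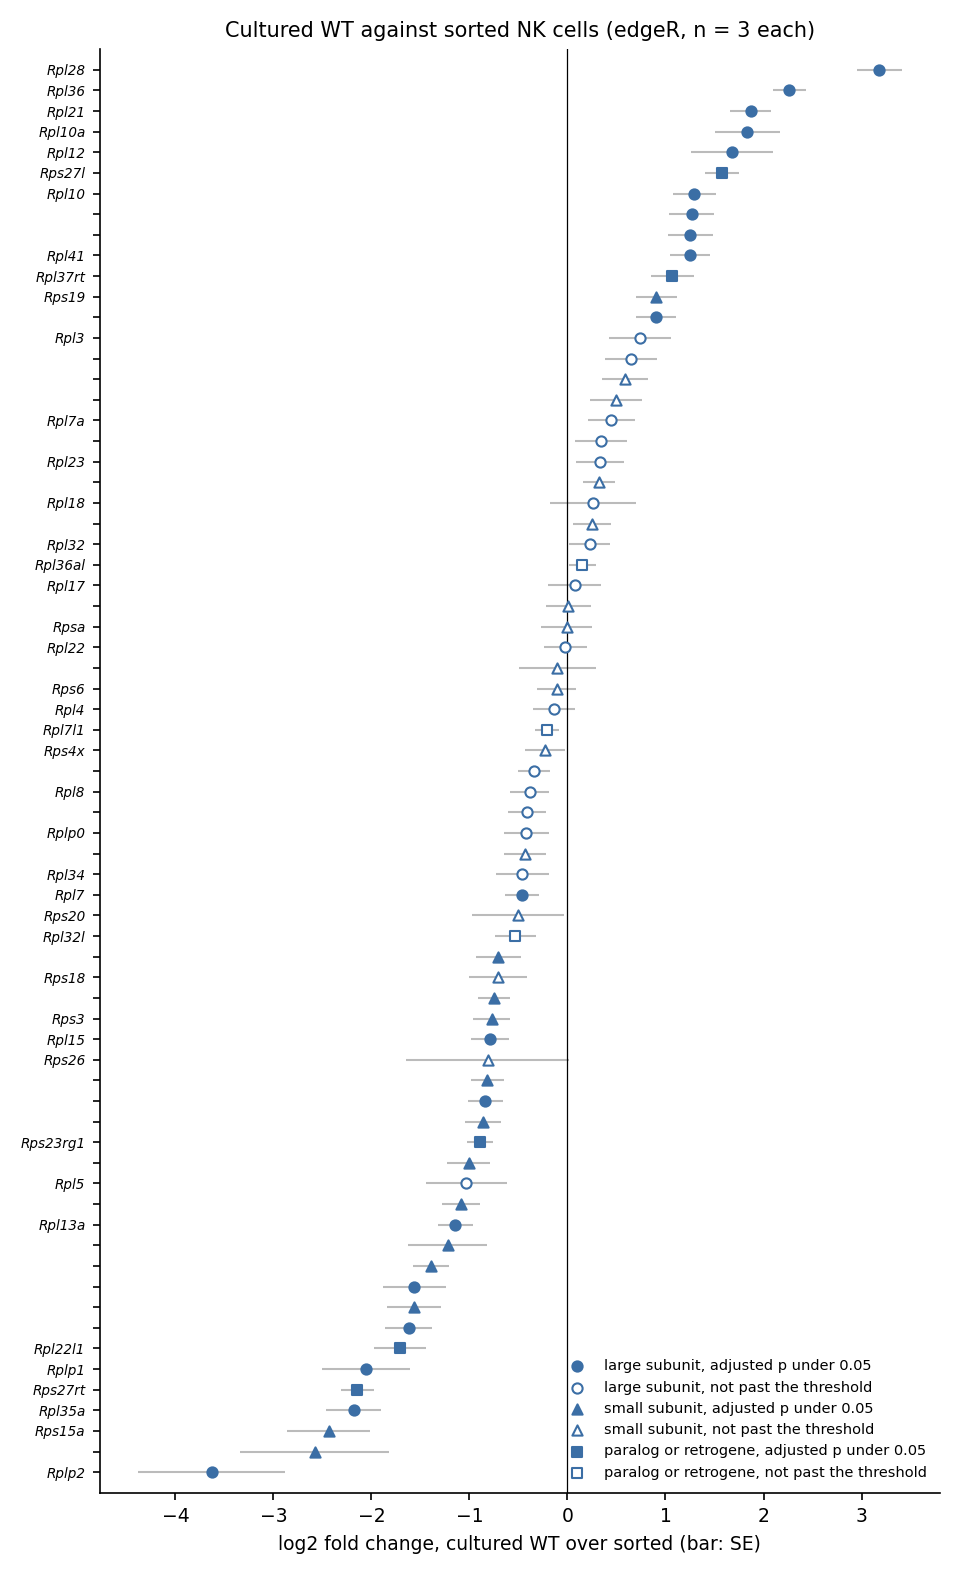
Log2 fold change of cultured WT over sorted NK cells for 69 ribosomal protein genes (3 libraries per group), with labels at genes named in the text. Bars are SEs derived from edgeR's F statistic. Filled symbols passed an adjusted p of 0.05; 13 lie right of 0 and 24 left, and 12 of the 13 filled triangles, the small-subunit genes, lie on the left.

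The genes with the largest rise in culture were Rpl28, Rpl36, Rpl21, Rpl10a, Rpl12 and Rps27l. Rpl28 (chromosome 7, positions 4792965 to 4794547 in GRCm38), whose start and first coding bases are given above, had 39.9, 35.5 and 45.0 CPM in cultured WT libraries, against 5.62, 4.35 and 3.27 CPM in the Immature, M1 and M2 libraries. Every cultured library lay above every sorted one, by 3.18 on the log2 scale (edgeR adjusted p = 3.24e-05, SE 0.23). Rpl36, of the large subunit, had 140, 114 and 122 CPM in cultured WT libraries, against 31.9, 22.5 and 23.9 CPM in Immature, M1 and M2 (log2 fold change 2.26, SE 0.17). Of the pair of Rpl36 and its copy Rpl36-ps12, Rpl36 held 28.0 to 49.9% of it in cultured WT libraries, against 6.5 to 6.9% in sorted libraries, while the pair summed to 278 to 407 CPM and 326 to 460 CPM. Windows of Rpl36 were found in 12 pseudogenes, and the counts of all of them were not summed.

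Rpl21 had 519, 422 and 563 CPM in cultured WT libraries, against 180, 121 and 111 CPM in Immature, M1 and M2, and Rpl21 windows were shared with 82 other genes. Rpl10a and Rpl12 had log2 fold changes of 1.83 and 1.68 (adjusted p = 0.00244 and 0.00987, edgeR), each with 0% unique windows and under 80 CPM in every library. Rps27l, in which 51.7% of windows were unique, had 89.6, 91.0 and 111 CPM in cultured WT libraries, against 36.8, 25.4 and 35.7 CPM in Immature, M1 and M2. The groups did not overlap and differed by 1.58 on the log2 scale (edgeR adjusted p = 0.00018, SE 0.18). Rpl10, the X-linked gene of a late-joining large-subunit protein, also rose, to 47.6, 65.7 and 39.0 CPM in cultured WT, against 23.0, 18.1 and 20.9 CPM in the sorted libraries. Rpl10 has 0% unique windows, which were shared with 15 other genes, and its counts were not summed with theirs.

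Rplp2, Rps15a, Rpl35a, Rps27rt and Rplp1 had some of the largest falls in culture. Rplp2 and Rpl35a reached 20 CPM in fewer than 3 cultured libraries and met the 20 CPM rule only through the sorted ones. The gap of these 2 genes between the groups is not independent of that rule. Rplp1 and Rplp2 encode the acidic proteins of the ribosomal stalk, which recruits the elongation factors. Of Rplp1 windows 39.6% were unique and 60.4% were found in Gm10073. Of Rplp2 windows 33.8% were unique and 66.2% were found in Wdr89. The counts of Gm10073 and Wdr89 were not summed with those of the stalk genes. Rplp2 (chromosome 7, positions 141447651 to 141451359) had 7.90, 42.2 and 6.15 CPM in cultured WT libraries, against 279, 190 and 226 CPM in Immature, M1 and M2. Rplp1 had 167, 510 and 232 CPM in cultured WT libraries, against 1702, 1023 and 1053 CPM in the sorted libraries. In both WT replicate 2 was the highest of the cultured WT libraries and still below each sorted one, with log2 fold changes of -3.63 and -2.06 (adjusted p = 0.00799 and 0.00817, edgeR). Rplp0, their anchor on the ribosome, did not pass the test at 799 ± 137 CPM in cultured WT and 1068 ± 342 CPM in sorted libraries (SD, n = 3 each; adjusted p = 0.156, edgeR).

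Rps27rt, whose coding sequence is that of Rps27, fell to 249, 256 and 279 CPM in cultured WT libraries, against 1411, 1013 and 1048 CPM in Immature, M1 and M2 (log2 fold change -2.15, SE 0.17, edgeR adjusted p = 3.9e-05). Rps27 and Rps27rt summed to 252 to 282 CPM in cultured WT and 1026 to 1427 CPM in sorted libraries, so that here the sum of gene and copy was lower too. Rps15a fell to 27.0, 79.2 and 42.9 CPM in cultured WT libraries, against 365, 224 and 217 CPM in Immature, M1 and M2, and the gene with its 6 named pseudogenes summed to 193 to 256 CPM and 370 to 658 CPM. Rpl35a had 7.85, 16.8 and 9.64 CPM in cultured WT libraries, against 62.3, 44.4 and 49.0 CPM in the sorted ones.

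Paralogs are set beside their parent genes here. Rpl22l1, which RPL22 represses in mouse cells, fell to 24.3, 12.7 and 14.99 CPM in cultured WT libraries, against 69.7, 52.9 and 47.3 CPM in Immature, M1 and M2 (log2 fold change -1.71, SE 0.26, edgeR adjusted p = 0.00082). Rpl22 itself had a log2 fold change of -0.02, at 236 ± 18.5 CPM in cultured WT and 239 ± 81.0 CPM in sorted libraries (SD, n = 3 each). Rpl7l1 and Rpl36al were not called, with log2 fold changes of -0.21 and 0.15, while Rpl7 fell by 0.46 on the log2 scale (adjusted p = 0.0424, edgeR; lost in 6 of 14 other fits). Rpl36a, the parent of Rpl36al, had 5.82 to 8.46 CPM in cultured WT and 1.93 to 4.34 CPM in sorted libraries. Rpl32l fell short of the threshold at -0.53 (adjusted p = 0.0537, edgeR), and its parent Rpl32 had 0.22.

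Of the remaining named genes, Rpl13a fell by 1.14 on the log2 scale (adjusted p = 0.000788, edgeR), to 141, 158 and 153 CPM in cultured WT libraries, against 421, 316 and 264 CPM in Immature, M1 and M2. Rps19 rose to 196, 190.3 and 223 CPM in cultured WT libraries, against 147, 90.3 and 87.5 CPM in the sorted ones, a log2 fold change of 0.91 (adjusted p = 0.00566, and 0.0743 in a fit of all 9 libraries, edgeR). Rpl3, Rpl5, Rps4x, Rps6 and Rpsa had log2 fold changes of 0.74, -1.03, -0.23, -0.11 and -0.01, and none was called. Rpsa stood at 737 ± 167 CPM in cultured WT and 742 ± 258 CPM in sorted libraries (SD, n = 3 each).

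Of the 37 calls, 28 held in all 14 other fits, 11 higher and 17 lower, and in none of these fits did a called gene change direction. The calls of Rpl21, Rps15a and Rpl35a were lost only in the fit of all 9 libraries, with adjusted p = 0.0993, 0.0761 and 0.314 there (edgeR). The Immature library weighed on the balance, since without it 22 genes were higher and 20 lower, with a median log2 fold change of -0.12 (edgeR), beside 27.4% of all genes higher and 29.9% lower in that fit. Scaling by library totals alone moved the median of all genes by 0.18 and gave 17 higher and 22 lower among the 69, beside 33.5% and 23.4% of all genes. Without WT replicate 2, 15 were higher and 29 lower, beside 22.1% and 25.8% of all genes. Cultured and sorted libraries also differed in the list of myeloid markers. These summed to 341 to 571 CPM in cultured WT and 1143 to 1719 CPM in sorted libraries, and Lyz2, S100a8 and S100a9 had 0 counts in every culture. Only 1 of the 6 myeloid markers had enough counts in the cultures for the test between genotypes. The sum there rested mostly on that 1 gene and is no measure of myeloid cells. The part of these markers in the result was not tested.

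Other translation genes did not all move with the ribosomal proteins. Of 16 TOP translation factors 5 rose and 6 fell in culture. This and the list counts that follow stand beside 26.8% of all 11117 genes tested called higher and 30.0% called lower. Eif3e and Eif3f, subunits of the initiation factor that joins the small subunit to mRNA, fell by 0.98 and 0.72 on the log2 scale, while Eif3a of the same complex and the histone chaperone gene Nap1l1 rose by log2 fold changes of 0.96 and 0.95. Eef1a1 fell to 6205 ± 342 CPM in cultured WT, against 8800 ± 2074 CPM in sorted libraries (SD, n = 3 each; adjusted p = 0.0467, edgeR). Of 28 other initiation factors 8 rose, among them Eif5b (1.56), which joins the subunits, and Eif2s2 (1.55), a part of the factor that brings the initiator tRNA. A further 4 fell, among them Eif4a2 (-0.89) and Eif3m (-0.84). Of the 7 chaperones of ribosomal proteins Grwd1 rose (1.14) and Bccip fell (-0.55). Of 76 mitochondrial ribosomal protein genes tested 18 rose and 10 fell, with a median log2 fold change of 0.14.

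Of 15 genes of TOP mRNA control 7 rose in culture and 3 fell, beside 26.8% and 30.0% of all genes tested. Larp1 rose to 618, 631 and 554 CPM in cultured WT libraries, against 167, 171 and 85.0 CPM in the sorted libraries, by 2.09 on the log2 scale (SE 0.26, edgeR adjusted p = 0.000348). Rps6kb1, an S6 kinase, rose by a log2 fold change of 0.88, and Eif4ebp2, a repressor of cap-dependent initiation that mTOR inactivates, fell by 0.78. Mycn, a MYC family gene, rose to 58.0 CPM on average in cultured WT, against 0.424 CPM in sorted libraries, where M1 had 0 counts. Myc rose to 153 ± 19.3 CPM in cultured WT, against 65.6 ± 32.0 CPM in sorted libraries (SD, n = 3 each; adjusted p = 0.0251, edgeR). Of ribosomal proteins named otherwise, Fau and Rack1 were not called, with log2 fold changes of -0.55 and -0.26. Of 13 cell cycle genes 12 rose, summing to 4322 to 4938 CPM in cultured WT and 813 to 1595 CPM in sorted libraries.

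Among the sorted populations every one of the 69 genes was lower in M1 and in M2 than in Immature cells. There was 1 library per population, so these are values with no test, and intervals cover counting error only. The share of counts in the 69 genes was 3.19% in Immature, 2.06% in M1 and 1.93% in M2. Below 1 by any amount were 69 of 69 M1-over-Immature ratios, beside 47.5% of 8010 genes, and 69 of 69 M2-over-Immature ratios, beside 47.6% of 8015 genes. Lower by 1.5-fold or more were 35 of 69 in M1, beside 8.16% of all genes, and 38 of 69 in M2, beside 11.7%. Higher by as much were 0 of 69 in both, beside 4.72% and 8.97% of all genes. The median log2 ratio was -0.59 for M1 over Immature and -0.63 for M2 over Immature, and 0.02 over all genes in both.

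**Figure D5:**
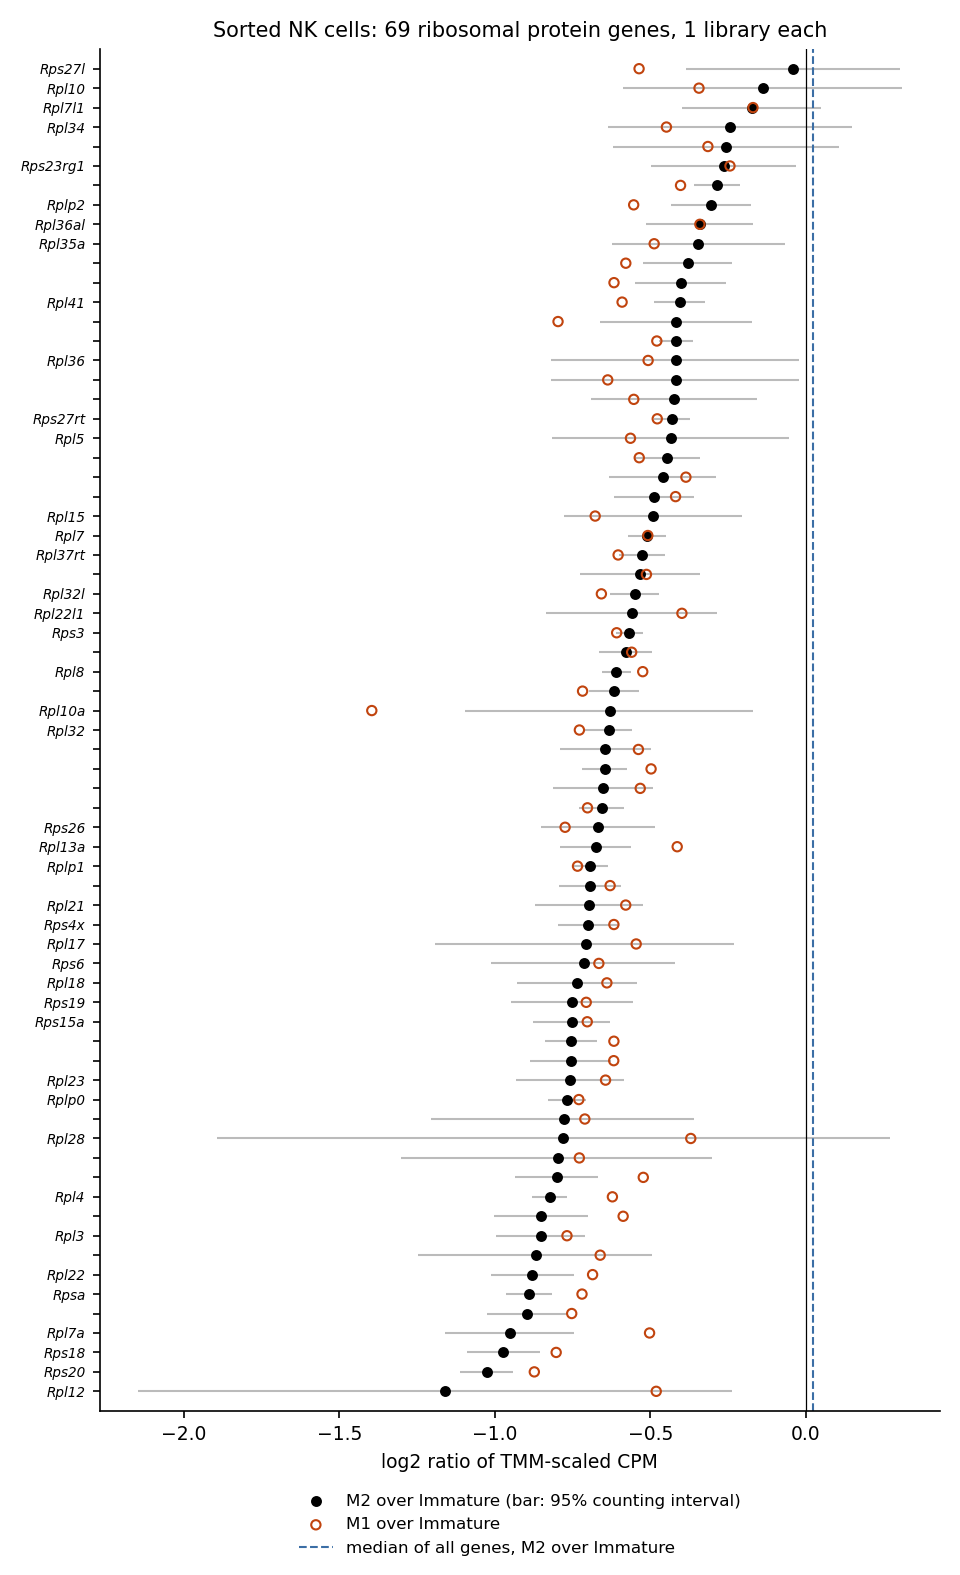
Log2 ratio of TMM-scaled CPM for M2 over Immature (black, with 95% counting interval) and M1 over Immature (open red), for 69 ribosomal protein genes, 1 library per population, with labels at genes named in the text. Every point lies left of 0, with medians of -0.63 and -0.59, and the dashed line marks the median of all genes for M2 over Immature, 0.02.

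Between M1 and M2 the genes differed little. The median log2 ratio of M2 over M1 was -0.04, beside 0.03 over all genes, with 41 of 69 below 1. By 1.5-fold or more 1 gene was lower, Rpl12, and 1 was higher, Rpl10a, beside 5.82% and 4.66% of all genes. Those genes had 25 and 41 counts in M1, and 15 and 67 in M2. The interval of the ratio lay below 1 in 13 genes and above 1 in 12. Intervals were not counted over all genes, so these counts have no background.

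Large- and small-subunit genes shared the drop, with median log2 ratios of -0.68 and -0.65 for M2 over Immature. The 16 genes with 40% or more unique windows had a median of -0.62, and the 19 with 0% one of -0.49. In 63 of 69 genes the 95% interval of the M2 over Immature ratio lay below 1. No such count was made over all genes, so the 63 has no background here. The lowest ratios were those of Rpl12, Rps20, Rps18 and Rpl7a. Rps20 had 848, 463 and 417 CPM in Immature, M1 and M2, a log2 ratio of M2 over Immature of -1.03 (95% interval -1.11 to -0.94). Rps18, at the head of the small subunit, had 446, 256 and 227 CPM in Immature, M1 and M2, and Rpl7a had 142, 100.2 and 73.4 CPM. Rpl12 rested on 33, 25 and 15 counts, so that its interval ran from -2.15 to -0.24.

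The highest ratios were those of Rps27l, Rpl10, Rpl7l1 and Rpl34, whose intervals all included 0. Rps27l had 36.8, 25.4 and 35.7 CPM in Immature, M1 and M2, a log2 ratio of M2 over Immature of -0.04 (-0.39 to 0.30). Rpl7l1 had 89.1, 79.2 and 79.0 CPM, Rpl10 had 23.0, 18.1 and 20.9 CPM and Rpl34 had 30.6, 22.5 and 25.9 CPM. Rps27l and Rpl7l1 are paralogs, and Rps23rg1, a retrogene, had a log2 ratio of -0.26. Rpl22l1 and Rpl36al had log2 ratios of -0.56 and -0.34, beside -0.88 for Rpl22.

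Among abundant genes Rpl4 had a lower ratio than Rps3 and Rpl8. The intervals did not overlap, but they cover counting error only, with 1 library per population, so the difference between these genes was not tested. Rps3 had 2760, 1811 and 1863 CPM in Immature, M1 and M2 (log2 ratio of M2 over Immature -0.57, 95% interval -0.61 to -0.52), Rpl8 had 2451, 1704 and 1606 CPM (-0.61, interval -0.66 to -0.56) and Rpl4 had 1821, 1183 and 1029 CPM (-0.82, interval -0.88 to -0.77). The stalk genes Rplp0, Rplp1 and Rplp2 had log2 ratios of -0.77, -0.69 and -0.30. Rps6, Rps19, Rps4x, Rpsa, Rpl3, Rpl5 and Rpl13a had log2 ratios between -0.89, for Rpsa, and -0.43, for Rpl5. Rps27rt had 1411, 1013 and 1048 CPM (-0.43).

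Other translation genes were lower in M2 than in Immature cells to differing degrees. The 16 TOP translation factors had a median log2 ratio of M2 over Immature of -0.48. Of these, 5 were lower by 1.5-fold or more, beside 11.7% of all genes. Eef1a1 had 11169, 7920 and 7312 CPM in Immature, M1 and M2. The median was -0.19 for 28 other initiation factors and -0.03 for the 63 mitochondrial ribosomal protein genes with enough counts. Rack1 had 1896, 1223 and 1165 CPM in Immature, M1 and M2 and Fau had 45.7, 37.4 and 44.3 CPM. Myc had 94.0, 72.0 and 30.9 CPM and Larp1 had 167, 171 and 85.0 CPM. Cell cycle genes summed to 1595, 813 and 912 CPM in Immature, M1 and M2. Of 13, 12 were lower by 1.5-fold or more in M1 than in Immature, beside 8.16% of all genes. T cell markers summed to 519, 71.7 and 115 CPM, myeloid markers to 1143, 1325 and 1719 CPM, and NK markers to 14194, 21970 and 31836 CPM in Immature, M1 and M2. Whether these sums reflect cell makeup or RNA per cell cannot be told apart, and their part in the ribosomal protein ratios was not tested.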

How the data were processed

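Each deposited file lists a raw count for every Entrez gene of 1 library beside the length of that gene, per the file headers. The submitters' processing notes name Subread, featureCounts and limma as tools and GRCm38 (mm10) as the build. Tool versions and the handling of strand and of reads with several matches do not stand in these sources, and that handling bears on every gene with copies. Symbols came from RefSeq for 25275 identifiers and GENCODE for 18, and 1886 had none. The labels give culture by sample number, which was read in the order listed.

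The genes and lists were chosen with earlier results of these data known. Counts were tested in R 4.3.3 with edgeR 4.0.16 (filterByExpr with a minimum count of 10, TMM, robust quasi-likelihood fit, Benjamini-Hochberg over all tested genes, called at adjusted p under 0.05). Id2-null was set against WT in those 6 libraries, and cultured WT against the 3 sorted libraries with TMM over all 9. The SEs given with edgeR values are the absolute log2 fold change divided by the square root of edgeR's F statistic. DESeq2 1.42.0 and limma 3.58.1 (voom) were alternatives. Same-numbered Id2-null and WT libraries deviated together over all genes (r = 0.352, 0.241 and 0.417), so the replicate block is printed where it changes a call. Over the ribosomal protein genes alone these were 0.53, -0.52 and -0.49. There, differently numbered pairs reached 0.60 (Id2-null replicate 3 with WT replicate 2) and 0.55 (Id2-null replicate 1 with WT replicate 3). Sorted libraries were compared by ratios with exact binomial 95% intervals, which hold for counting error alone, as there was 1 library per population. The libraries carry no molecular identifiers that would tell copies of 1 molecule apart, so the intervals may be too narrow even for that error. A level of 3 counts, at 0.621 to 0.727 CPM, is the limit that a count of 0 allows.

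Named genes were the 6 largest and 6 smallest folds of cultured WT over sorted, the 4 highest and lowest M2 over Immature ratios, the 3 highest and lowest levels per kb, paralogs with their parents, every called gene of Id2-null against WT (0), a fixed set of 15 genes, up to 4 called genes per other list, and Myc, Larp1, Eef1a1, Fau and Rack1. Rpl4, Rpl8, Rps3, Rps26, Rpl41, Rpl18, Rpl23, Rpl32, Rpl11, Rpl38, Rpl39, Rps27 and Rps23 were also named in places after their values were seen, as was Rps4l. Results for some genes are not reported here. The scripts were tested on simulated data.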

Additional observations from a re-analysis of the deposited data

How the results depend on the processing

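Id2-null against WT gave 0 ribosomal protein genes lower under every setting run, and 0 higher in all but 3: DESeq2 gave 1, the replicate block 4, and the fit without Id2-null replicate 3 and WT replicate 2, added after the data were seen, 3. Leaving out 1 library at a time gave 0 higher throughout. The median log2 fold change was positive in every fit and 0.38 over the 16 genes with 40% or more unique windows. Among named genes, Rpl41 ran from -0.0826 to 0.32 when 1 library was left out and was 0.50 without both libraries. Rpl18 ran from -0.43 to 0.45 and was 0.74 without both. The cause of these turns was not tested.

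For cultured WT against sorted cells, leaving out 1 library gave 13 to 22 genes higher, 20 to 29 lower and medians from -0.44 to -0.12, with the highest count higher and the median nearest 0 both without Immature. The median was -0.16 with library totals alone and -0.19 over genes at 1 CPM or more. Among the 16 genes with 40% or more unique windows 2 were higher and 6 lower, since fewer genes were counted, beside 26.8% and 30.0% of all genes. The fit of all 9 libraries lost 8 of the 37 calls and reversed none.

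Shares of counts depend on which genes are summed. With pseudogene counts added they were 2.89% in Id2-null, 2.46% in WT, 3.48% in Immature, 2.25% in M1 and 2.12% in M2. Without the 5 most abundant genes they were 1.83% in Id2-null, 1.54% in WT, 2.37% in Immature, 1.52% in M1 and 1.43% in M2. Over the 16 genes with 40% or more unique windows they were 1.35%, 1.08%, 1.52%, 1.00% and 0.941% in the same order. The order of the groups was the same in each of these. As sums of TMM-scaled CPM, WT lay at 21583, below M1 at 22173 and M2 at 21893. The 3 sorted libraries have no replicates, and genes with copies are limited by how reads with several matches were counted.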

Other observations

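Rps4l, a relative of the X-linked Rps4x on chromosome 6 that RefSeq lists as a transcribed pseudogene, has 85.1% unique windows and ran against the 69 genes across the sorted populations. It had 57, 83 and 99 counts in Immature, M1 and M2, which is 14.6, 20.05 and 24.9 CPM, and a log2 ratio of M2 over Immature of 0.77 (95% interval 0.29 to 1.27, counting error only). In culture it was at 4.62, 6.76 and 2.65 CPM in Id2-null libraries and 4.57, 3.74 and 1.73 CPM in WT libraries. Against the sorted libraries edgeR put cultured WT at -2.57 on the log2 scale, with an SE of 0.36 and an adjusted p of 0.000503. It was singled out after its values were seen. Of the 4 low-level genes and pseudogenes with a positive M2 over Immature log2 ratio, among 55 genes outside the 69, the others were Rpl11, Rpl9 and Rps13-ps4. Rpl9 had 22, 34 and 38 counts in Immature, M1 and M2 and a log2 ratio of 0.77 (95% interval -0.03 to 1.59). Genes among the 55 with 0 counts in Immature or M2 have no ratio.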
